A study of Mus musculus with 12 samples.

Results

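Interferon-inducible GTPases were followed through 12 RNA-seq libraries of mesenchymal stem cells from the bone marrow of mice, a stromal cell that can turn into fat, bone or cartilage. The 10 genes described are 5 guanylate-binding proteins (Gbp2, Gbp3, Gbp6, Gbp7 and Gbp10) and 5 immunity-related GTPases (Iigp1, Irgm1, Irgm2, Igtp and Gm4951). They were found by symbol among the 23955 gene symbols of the count table, and all 10 passed the filter on low counts that left 12323 symbols for testing. They were selected on their measured levels in DMSO, ROSI and TBT, so their differences between these groups are given as a description, and no test of them is offered as support.

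Every culture was of female C57BL/6 cells at passages 9 to 10 and was kept for 14 days in the same adipogenic cocktail, made of isobutylmethylxanthine at 0.5 mM, dexamethasone at 1 uM and insulin at 5 ug/mL. The DMSO group received the vehicle at 0.1%. The ROSI group received 500 nM rosiglitazone, which activates PPARγ, the nuclear receptor of fat cells, and the TBT group received 50 nM tributyltin, an organotin that binds the retinoid X receptors as well as PPARγ. Each group had 4 libraries. All groups therefore carry dexamethasone, a glucocorticoid, and no group without the cocktail entered this comparison. Whether libraries of the same treatment were separate cultures is not stated in the labels, so a p-value here reflects the scatter among these libraries, which may be technical.

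Both families are part of cell-autonomous immunity. Interferons bind receptors at the cell surface, JAK kinases phosphorylate STAT proteins, and STAT and IRF factors then switch on genes through short promoter elements, the ISRE and the GAS. The induced GTPases bind to membranes around intracellular bacteria and parasites and help to break them. Among the immunity-related GTPases, Irgm1, Irgm2 and Igtp are regulators that sit on the cell's own membranes and hold effectors such as Iigp1 in check.

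Promoter sequences are shown first because the genes are known as interferon-induced, and the letters of both elements can be looked for in them. The RefSeq promoter table, built on GRCm38.p6 (the deposited counts were made on mm9), held promoters for 6 of the 10 genes: Gbp2, Gbp3, Gbp7, Irgm1, Irgm2 and Igtp. The letters searched on both strands were GAAANNGAAA, read as TTTCNNTTTC on the other strand, for an ISRE-type match and TTCNNNGAA for a GAS-type match, in the 250 bases before each start site. The 150 bases next to the start are printed 5′ to 3′ on the strand of the gene, with matches in capitals. Gbp2 is taken from chr3:142620513-142620662, Gbp3 from chr3:142559894-142560043 and Gbp7 from chr3:142530186-142530335, all on the plus strand. Irgm1 is taken from chr11:48871421-48871570 on the minus strand, and Irgm2 from chr11:58214827-58214976 and Igtp from chr11:58199406-58199555 on the plus strand.
Gbp2: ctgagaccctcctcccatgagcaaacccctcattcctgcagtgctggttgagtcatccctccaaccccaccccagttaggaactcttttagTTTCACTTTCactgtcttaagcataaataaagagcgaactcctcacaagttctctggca
Gbp3: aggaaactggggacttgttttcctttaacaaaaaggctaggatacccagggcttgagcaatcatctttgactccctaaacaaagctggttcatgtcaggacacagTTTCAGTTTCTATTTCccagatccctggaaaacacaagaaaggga
Gbp7: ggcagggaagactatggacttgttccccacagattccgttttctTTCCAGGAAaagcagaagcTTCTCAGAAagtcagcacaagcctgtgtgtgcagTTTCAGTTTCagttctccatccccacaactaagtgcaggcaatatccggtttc
Irgm1: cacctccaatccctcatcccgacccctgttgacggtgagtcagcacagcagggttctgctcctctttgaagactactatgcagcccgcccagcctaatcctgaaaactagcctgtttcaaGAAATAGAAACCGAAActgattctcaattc
Irgm2: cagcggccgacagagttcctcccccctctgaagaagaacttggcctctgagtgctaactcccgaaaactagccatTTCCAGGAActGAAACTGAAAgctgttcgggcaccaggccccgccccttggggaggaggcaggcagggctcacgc
Igtp: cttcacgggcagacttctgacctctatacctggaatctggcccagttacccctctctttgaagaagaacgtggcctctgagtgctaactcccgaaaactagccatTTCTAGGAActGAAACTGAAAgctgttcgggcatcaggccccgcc

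An ISRE-type match was present in 6 of these 6 genes, while 3.46% of all 27025 gene symbols with a promoter held one. Gbp3 has a second promoter in the table, and no match was found there. Counted back from the start site, the ISRE-type match covered bases 59 to 50 in Gbp2, 53 to 44 in Gbp7, 64 to 55 in Irgm2 and 34 to 25 in Igtp. Gbp3 and Irgm1 each held a pair of matches that overlap by 4 bases, at 45 to 36 and 39 to 30 in Gbp3 and at 30 to 21 and 24 to 15 in Irgm1. GAS-type matches were found in 3 of the 6 genes, against 8.13% of all symbols. They lay at bases 106 to 98 and 87 to 79 in Gbp7, 75 to 67 in Irgm2 and 45 to 37 in Igtp. In Irgm2 and Igtp 2 bases separated the GAS-type match from the ISRE-type match after it. The longest identical run between these printed promoters was 38 bases. The next longest run between promoters of different genes was 13 bases, for Gbp3 and Gbp7. A match is a description of letters and shows neither binding nor a cause.

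Library totals ran from 4027152 to 7474654 counts, of which the 10 genes took 0.00767% to 0.0885%. Levels are given as CPM, the count scaled to a common library size with TMM factors, with the mean ± SD over n = 4 libraries. Marrow stromal markers summed to at least 1472 CPM in every library, although Eng, a marker often used to define these cells, had 0 to 5 counts. Leaving out 1 library moved several results of the TBT comparisons, above all TBT replicate 4, in which the ribosomal precursor Rn45s took 6.85% of counts against 0.399% to 0.67% in the other TBT libraries, 2.64% to 6.18% in DMSO and 1.36% to 9.27% in ROSI. In DMSO, 1466 sensory receptor genes, silent in most tissues, averaged 0.343 CPM per gene, and the averages in ROSI and TBT were 0.0437 and 0.0957. The lowest level of any of the 10 GTPases in a DMSO library was 15.6 CPM.

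All 10 GTPases were lower in ROSI than in DMSO or TBT, and TBT means ran from 61.9% (Gbp2) to 146% (Iigp1) of DMSO means. Summed over the 10 genes, the DMSO libraries held 854, 549.8, 394 and 548 CPM, the ROSI libraries 77.5, 79.8, 100.4 and 98.1 CPM, and the TBT libraries 845, 451, 931 and 511 CPM. Every ROSI library lay below every DMSO and every TBT library for 10 of 10 genes, an order that 6.57% of all tested genes had. The ranges of DMSO and TBT overlapped for 10 of 10 genes, as they did for most of the table, in which 8.26% of genes lay wholly lower and 7.42% wholly higher in TBT. These are bulk libraries, so fewer cells that express a gene and less RNA per cell cannot be told apart.

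**Figure D1:**
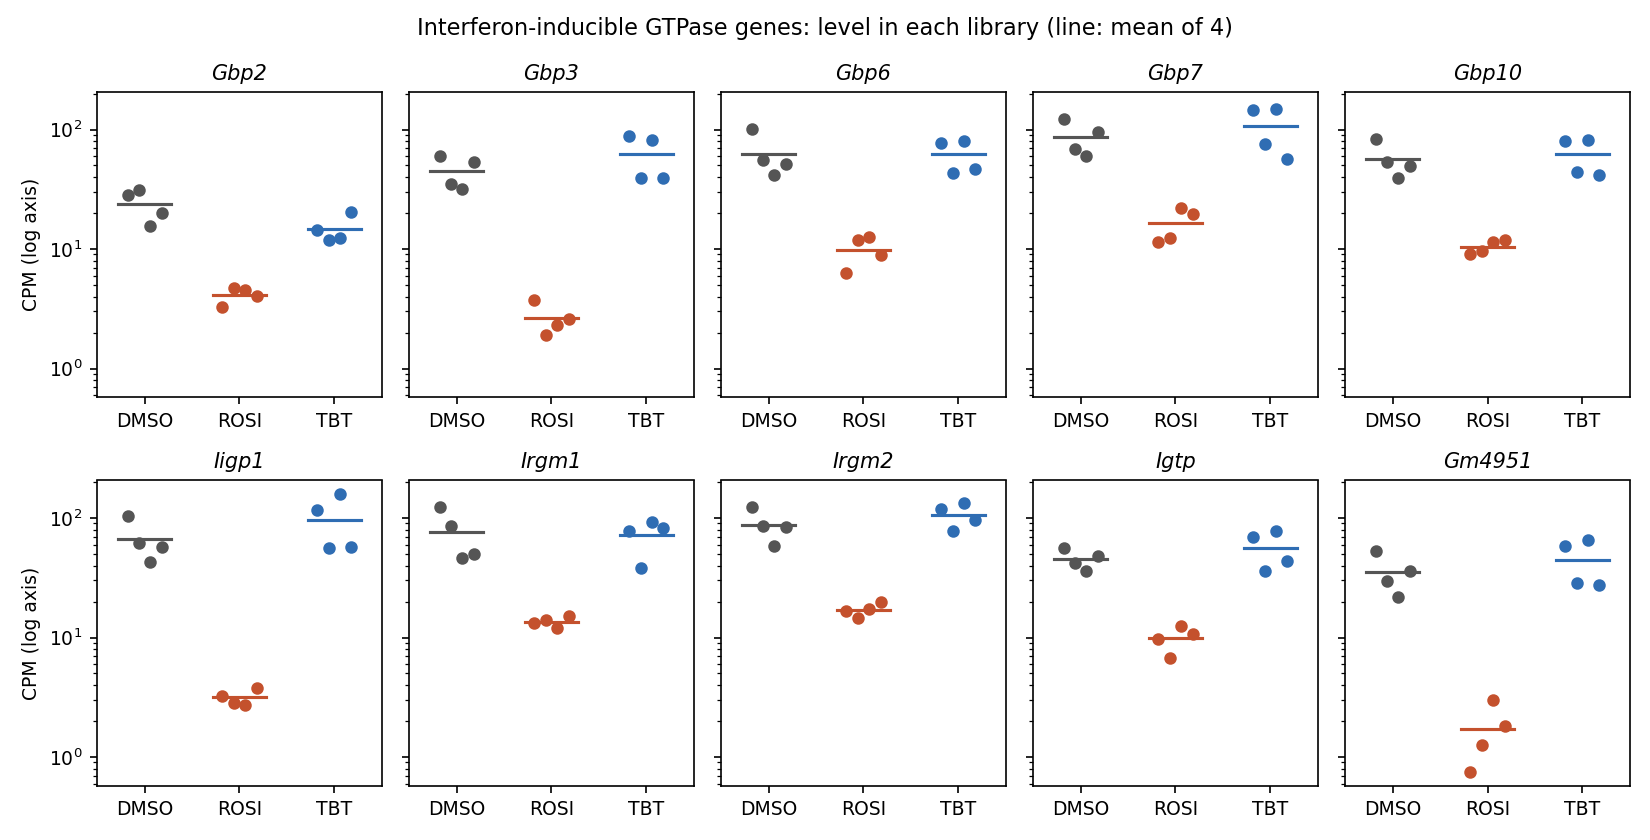
Level of each of the 10 GTPases in every library, in CPM on a log axis, with 1 point per library and a line at the mean of the 4 libraries of a group. The ROSI points lie below all DMSO and TBT points in each of the 10 panels, and the DMSO and TBT points overlap.

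Gbp2 is a guanylate-binding protein known to gather on the vacuoles of Toxoplasma. It had 28.5, 31.4, 15.6 and 20.1 CPM in the DMSO libraries, 3.26, 4.74, 4.53 and 4.01 in ROSI and 14.3, 12.0, 12.4 and 20.4 in TBT. TBT replicates 1, 2 and 3 lay below every DMSO library, and TBT replicate 4 lay inside the DMSO range. The log2 fold change (± SE, from the edgeR fit) was -2.48 ± 0.26 for ROSI against DMSO and 1.81 ± 0.26 for TBT against ROSI. For TBT against DMSO it was -0.68 ± 0.23 and missed the threshold of 0.05 narrowly (edgeR adjusted p = 0.053).

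Gbp3, a neighbour of Gbp2 on chromosome 3, was the guanylate-binding protein with the lowest remaining share in ROSI. Its DMSO libraries held 60.3, 34.9, 31.5 and 53.7 CPM, its ROSI libraries 3.76, 1.90, 2.33 and 2.61, and its TBT libraries 88.6, 39.2, 81.9 and 38.9. ROSI stood at 5.87% of the DMSO mean, with a log2 fold change of -4.13 ± 0.36. TBT replicates 1 and 3 lay above every DMSO library, and TBT replicates 2 and 4 lay inside the DMSO range.

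Gbp7, known to take part in the assembly of the phagocyte oxidase, lies in the same chromosome 3 cluster. It had 123, 69.3, 60.5 and 96.1 CPM with DMSO, 11.5, 12.3, 22.0 and 19.7 with ROSI and 145, 75.5, 147 and 56.8 with TBT. As in Gbp3, TBT replicates 1 and 3 were the highest of all libraries, while TBT replicate 4 fell just below the DMSO range. The log2 fold change of ROSI against DMSO was -2.39 ± 0.32, which left 18.8% of the DMSO mean, so Gbp3 and Gbp7 differed in how much remained.

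Gbp6 and Gbp10 are large GTPases of the chromosome 5 cluster and are near-identical copies. Gbp6 had 101, 55.2, 41.4 and 51.5 CPM with DMSO, 6.27, 11.8, 12.7 and 8.83 with ROSI and 77.2, 43.2, 80.9 and 46.3 with TBT. Gbp10 had 82.7, 53.1, 39.6 and 49.6 CPM with DMSO, 9.03, 9.64, 11.4 and 11.8 with ROSI and 79.9, 44.2, 81.5 and 41.8 with TBT. Both were highest in DMSO replicate 1 and lowest in DMSO replicate 3 within that group, and no ROSI library reached the lowest DMSO or TBT library. ROSI against DMSO gave -2.60 ± 0.30 for Gbp6 and -2.41 ± 0.26 for Gbp10. Of the 50-base stretches in the GENCODE transcripts of Gbp10, the length of 1 read, 84.1% also occur in transcripts of other genes, mostly in Gbp6 (73.3%). For Gbp6 the share is 70.7%, with 65% in Gm43302 and 45.9% in Gbp10. Gm43302 also holds 72.1% of the stretches of Gbp10. How the authors counted reads with several matches is not given in the sources used here. The values of Gbp6 and Gbp10 are therefore uncertain as single genes and should be read as 1 pair, which may include reads from Gm43302.

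The immunity-related GTPases include effectors and regulators. Iigp1 is an effector that loads onto the vacuole of Toxoplasma and disrupts it. Its DMSO libraries held 103, 62.2, 42.5 and 57.5 CPM, its ROSI libraries 3.26, 2.84, 2.72 and 3.81, and its TBT libraries 117, 56.4, 158 and 57.6. ROSI stood at 4.75% of the DMSO mean, the lowest share of the 10 genes, and the log2 fold change was -4.40 ± 0.39. The ROSI libraries lay close together, with the highest 1.40 times the lowest, while in TBT the highest was 2.80 times the lowest.

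Gm4951, an immunity-related GTPase gene on the same chromosome as Iigp1 (18), had 52.7, 29.5, 21.8 and 36.3 CPM in DMSO and 58.1, 28.8, 65.2 and 27.6 in TBT. In ROSI it had 0.752, 1.26, 2.98 and 1.81 CPM, which rest on 3, 8, 23 and 9 counts. The ROSI libraries thus differed among themselves by a ratio of 3.96, the widest of any of the 10 genes in any group, at a depth that leaves each value imprecise. ROSI against DMSO gave -4.24 ± 0.41, or 4.84% of the DMSO mean.

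The regulators Irgm1, Irgm2 and Igtp lie on chromosome 11. Irgm1, known for its part in resistance to mycobacteria, had 124, 86.3, 46.3 and 50.1 CPM with DMSO, 13.3, 13.9, 11.9 and 15.0 with ROSI and 77.4, 38.2, 92.2 and 82.2 with TBT. Its DMSO libraries spread over a ratio of 2.69, the widest among the 10 genes in that group, and its ROSI libraries over 1.26, the narrowest. The log2 fold change of ROSI against DMSO was -2.50 ± 0.31.

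Irgm2, which is found at the Golgi, had 123, 86.1, 58.4 and 84.4 CPM with DMSO, 16.5, 14.5, 17.5 and 19.9 with ROSI and 119, 77.6, 134 and 95.7 with TBT. Igtp, also called Irgm3 and known from the endoplasmic reticulum and lipid droplets, had 56.5, 41.9, 35.9 and 48.5 CPM with DMSO, 9.78, 6.79, 12.4 and 10.6 with ROSI and 69.2, 35.9, 77.4 and 43.7 with TBT. Both lay lowest in ROSI without overlap, and in both TBT replicate 3 was the highest of the 12 libraries. ROSI against DMSO gave -2.36 ± 0.22 for Irgm2 and -2.19 ± 0.25 for Igtp, the smallest difference of the 10. Reads can pass between them too, since 11.8% of the 50-base stretches of Igtp also occur in Irgm2.

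By how much remained in ROSI, the 10 genes fell into a low and a higher range. Iigp1, Gm4951 and Gbp3 stood at 4.75% to 5.87% of their DMSO means, and the other 7 at 15.9% (Gbp6) to 21.7% (Igtp). The 3 low genes come from both families and from chromosomes 3 and 18. At most 4.62% of the 50-base stretches of any of them are shared with another gene. No gene of the 10 lay between these ranges, and the gap was seen after the values were known, so it has no test. Some relatives outside the list did lie between them: Tgtp2 at 7.95%, Ifi47 at 10.4% and Gbp5 at 11.6% of the DMSO mean. The gap therefore holds for the 10 listed symbols and not for both families.

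**Figure D2:**
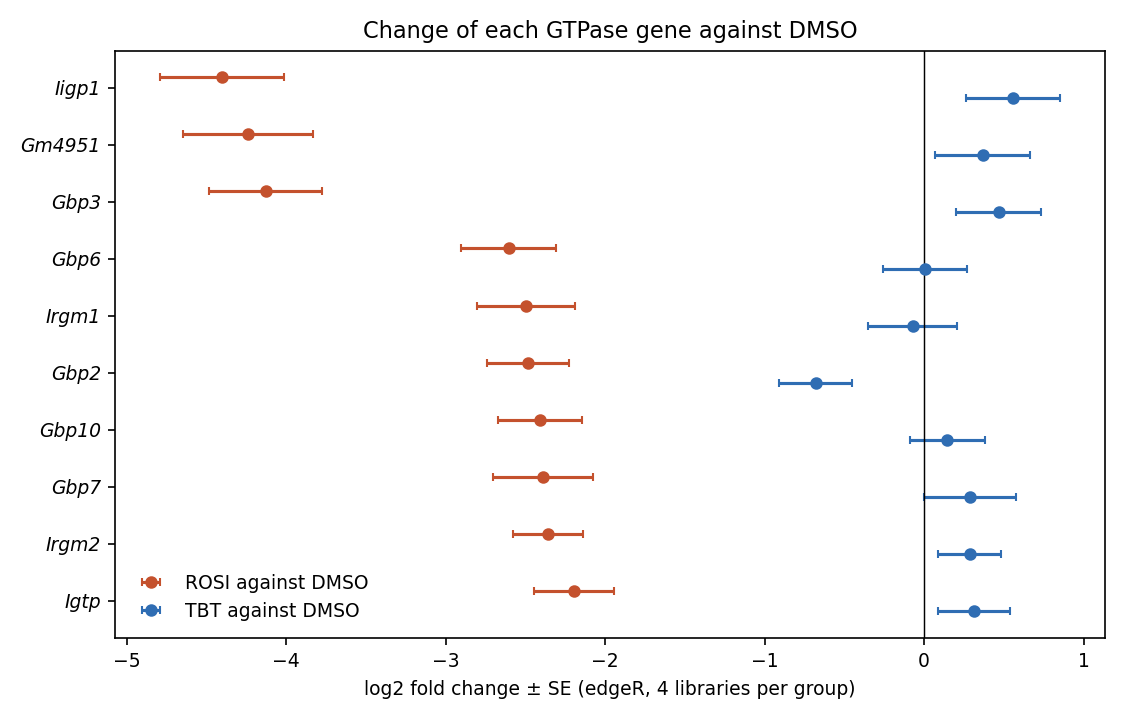
Log2 fold change of each GTPase in ROSI against DMSO and in TBT against DMSO, as points with bars of 1 SE from the edgeR fit over 12 libraries. ROSI values lie between -4.40 and -2.19, and TBT values between -0.68 and 0.56.

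Over the whole table, the median log2 fold change was 0.01 for ROSI against DMSO, and the median of the 10 genes was -2.49 (range -4.40 to -2.19). The edgeR fit called 10 of 10 lower in ROSI, beside 12.6% of all tested genes called lower. This contrast is among those the genes were named from, so the count is given as a description. For TBT against ROSI, which shares the ROSI libraries, the median of the 10 genes was 2.62 (range 1.81 to 4.95) against 0.02 for all genes, with 10 called higher beside 12.8% of all genes.

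For TBT against DMSO, in which the DMSO libraries serve again, the log2 fold changes of the 10 genes had a median of 0.29 and ran from -0.68 for Gbp2 to 0.56 for Iigp1, against a median of -0.01 for all genes. The edgeR quasi-likelihood test called 0 of 10, beside 15.2% of all genes called in either direction, 8.22% higher and 7.03% lower. At an unadjusted p below 0.05 it had 1 gene, Gbp2, and DESeq2 and limma on the deposited log2 values each called 1, again Gbp2, lower. Besides Gbp2, the adjusted p-values ran from 0.20 for Iigp1 (0.56 ± 0.29) to 0.99 for Gbp6 (0.0033 ± 0.26). A miss of the threshold does not show that TBT and DMSO are alike: Gbp3 was at 0.47 ± 0.27 and Gm4951 at 0.37 ± 0.30. Without TBT replicate 4, 3 of the genes passed: Gbp2 lower at -0.85 (edgeR adjusted p = 0.0066), Gbp3 higher at 0.65 (edgeR adjusted p = 0.045) and Iigp1 higher at 0.75 (edgeR adjusted p = 0.035). In that fit 4124 of all tested genes passed in either direction, beside 1879 in the main fit, so such calls were common over the whole table. Without DMSO replicate 3, Gbp2 alone passed, at -0.85 (edgeR adjusted p = 0.02).

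Levels of different genes are compared per kilobase of merged exon, as CPM per kb. In DMSO, Irgm2 (23.8 ± 7.15) and Igtp (22.6 ± 4.39) were highest. They were followed by Gbp7 (15.5 ± 5.00), Gbp10 (14.5 ± 4.78), Gbp3 (13.8 ± 4.32), Gm4951 (13.3 ± 4.98), Irgm1 (13.2 ± 6.28), Iigp1 (11.4 ± 4.47), Gbp6 (10.4 ± 4.40) and Gbp2 (9.49 ± 2.90). Neighbours in this order differed by less than the larger of their SDs, except Igtp and Gbp7. In ROSI the top was Igtp (4.90 ± 1.16) and Irgm2 (4.63 ± 0.599), and the bottom was Gbp3 (0.811 ± 0.244), Gm4951 (0.642 ± 0.360) and Iigp1 (0.542 ± 0.085), with Gbp2 (1.64 ± 0.262) next above by more than the SDs. In TBT, Irgm2 (28.9 ± 6.79) and Igtp (27.97 ± 9.84) led again, and Gbp2 (5.87 ± 1.55) was last, below Gbp6 (10.4 ± 3.34) by more than the SDs.

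Within groups the libraries kept a similar order from gene to gene. DMSO replicate 3 was the lowest DMSO library for 10 of 10 genes, an order that 20.8% of all tested genes had, and DMSO replicate 1 was the highest for 9 of 10, against 25.2% of all genes. The exception was Gbp2, highest in DMSO replicate 2. In TBT, replicates 1 and 3 lay above replicates 2 and 4 for 8 of 10 genes, against 18.7% of all genes, with Gbp2 and Irgm1 as exceptions. In ROSI the sums differed little, from 77.5 to 100.4 CPM.

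Other measures moved with the DMSO order. The 10 adipocyte markers summed to 1195, 1146, 2435 and 1350 CPM in DMSO replicates 1 to 4, so that replicate 3, lowest for the GTPases, was highest for fat-cell genes. The sensory receptor genes averaged 0.498, 0.428, 0.191 and 0.254 CPM per gene in the same libraries, lowest in replicate 3 as well. In TBT, where replicates 1 and 3 were high for the GTPases, the adipocyte sums were 3958, 3835, 3551 and 2889 CPM, and no such split was seen. Their part in the GTPase levels was not tested.

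**Figure D3:**
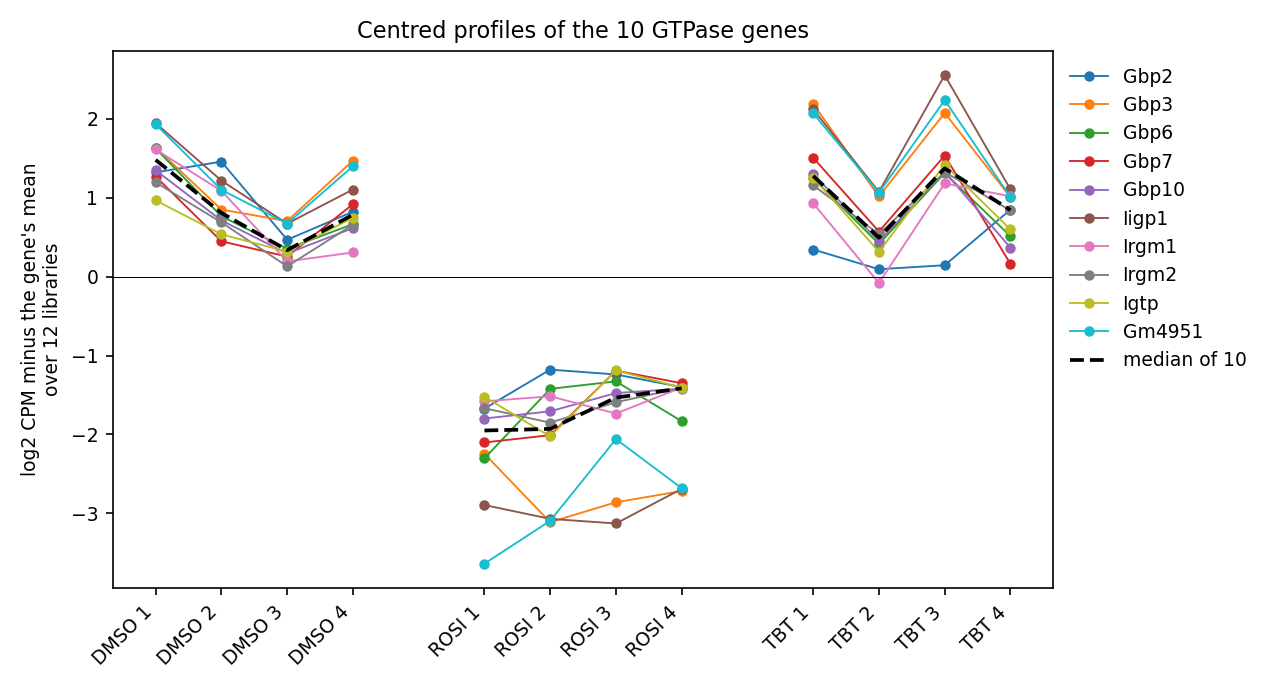
Log2 CPM of each of the 10 GTPases minus its own mean over the 12 libraries, plotted by library, with the median of the 10 as a dashed line and lines within a group as guides only. All profiles drop in ROSI, and DMSO replicate 3 is the lowest DMSO library for 10 of 10 genes.

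How alike the genes were was measured as the root mean square distance, over 12 libraries, between a gene's centred log2 CPM and the median of the 10. Irgm2 (0.15) and Gbp10 (0.17) lay nearest to the median, followed by Igtp and Gbp6 (both 0.25), Gbp7 (0.27) and Irgm1 (0.32). Gbp2 (0.56), Gbp3 (0.77), Gm4951 (0.85) and Iigp1 (0.89) lay farther away, and the median over the other 12313 tested genes was 1.33. The reference profile was made from the 10 genes themselves, so their lying nearer to it than other genes was fixed in advance. Outside the 10 genes, the 8 nearest were Trim30a (0.11), Ddx58 (0.20), Phf11c (0.27), Herc6 (0.29), Usp18 (0.29), Ifi47 (0.29), Xaf1 (0.30) and Parp14 (0.31). Trim30a, a tripartite-motif protein, had 105 ± 34.7 CPM with DMSO, 17.6 ± 3.87 with ROSI and 106 ± 31.7 with TBT. Ddx58, which encodes the RNA sensor RIG-I, stood at 151 ± 46.7, 31.3 ± 5.88 and 157 ± 33.3 CPM.

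**Figure D4:**
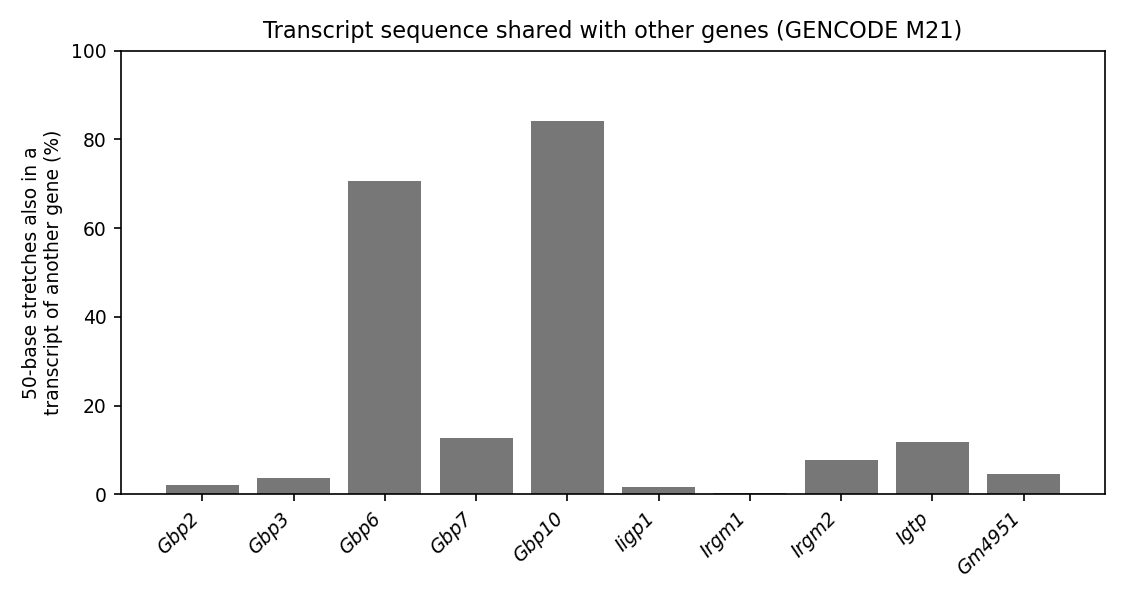
Share of the 50-base stretches of each GTPase's GENCODE transcripts that also occur in transcripts of another gene, in percent, as 1 bar per gene from 0. Gbp10 (84.1%) and Gbp6 (70.7%) stand far above the others, which reach at most 12.7% (Gbp7).

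Copies in the same families were looked at next, as the remaining guanylate-binding and immunity-related GTPases. Of these, 17 were in the table and 12 were tested. Of the 12, 11 fell in ROSI and 0 rose, with a median log2 fold change of -2.44, beside 12.6% of all genes lower and 10.0% higher. F830016B08Rik fell from 71.8 ± 21.6 to 3.35 ± 1.47 CPM (-4.35 ± 0.42, edgeR adjusted p = 1.6e-06) and had 94.9 ± 52.1 CPM in TBT. Ifi47, an immunity-related GTPase also known as Irgd, fell from 53.5 ± 20.3 to 5.58 ± 1.70 CPM (-3.24 ± 0.34, edgeR adjusted p = 3.0e-06), with 49.2 ± 21.3 in TBT. Tgtp2 fell by 3.69 ± 0.43, but 86.6% of its 50-base stretches are shared, mostly with Tgtp1. Gbp11 had 2.94 ± 1.22 CPM with DMSO and 0.925 ± 0.969 with ROSI, and its call (edgeR adjusted p = 0.049) was lost on leaving out any 1 of 8 libraries: each DMSO library, ROSI replicate 1, 2 or 3, or TBT replicate 3 (p up to 0.16 over the alternatives, edgeR). The 12th gene, Irgq, a relative that is not known as interferon-induced, had 43.1 ± 13.3 CPM with DMSO, 59.3 ± 10.4 with ROSI and 46.0 ± 8.71 with TBT (0.45 ± 0.20 in ROSI against DMSO, edgeR adjusted p = 0.12). Without DMSO replicate 4 it passed (edgeR adjusted p = 0.036).

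For TBT against DMSO, edgeR called 0 of these 12 genes, with 1 lower at an unadjusted p below 0.05 and 0 by DESeq2 or limma, and a median of -0.16. One gene, 9930111J21Rik2, passed without DMSO replicate 3 (edgeR adjusted p = 0.044). In TBT against ROSI, 8 of 12 were higher, beside 12.8% of all genes, with a median of 2.15. The listed 10 genes and these 12 were separated by the choice of symbols, not by a test.

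Other large interferon-induced GTPases lie outside both families. Mx2, a dynamin-like GTPase, fell in ROSI from 23.6 ± 10.97 to 1.62 ± 0.388 CPM (-3.87 ± 0.46, edgeR adjusted p = 1.1e-05), and Gvin1, a very large inducible GTPase, from 61.9 ± 22.0 to 24.6 ± 6.41 CPM (-1.32 ± 0.29, edgeR adjusted p = 0.0028). Mx1 fell as well, from 6.06 ± 3.64 CPM to a level at which 2 ROSI libraries had 0 counts. All 3 were higher in TBT than in ROSI, and edgeR called 0 of 3 in TBT against DMSO, with 0 at an unadjusted p below 0.05 and 0 by DESeq2 or limma. The dynamins, mitofusins and atlastins, which reshape membranes, are relatives not known as interferon-induced. Of 10 tested, 2 rose in ROSI, 1 fell and 7 were not called, with a median of 0.12, and these counts are near the 10.0% higher and 12.6% lower among all genes. Mfn2, a mitofusin, rose by 0.53 ± 0.14 (edgeR adjusted p = 0.0098) and Dnm1, the neuronal dynamin, fell by 0.86 ± 0.17 (edgeR adjusted p = 0.0013). Opa1 rose by 0.38 ± 0.12 (edgeR adjusted p = 0.031), a call lost without DMSO replicate 1 or 2 or ROSI replicate 3 or 4 (p up to 0.087 over the alternatives, edgeR). In TBT against DMSO, 2 of these 10 rose and 0 fell, beside 8.22% and 7.03% of all genes: Atl2, an atlastin, by 0.67 ± 0.12 (edgeR adjusted p = 0.0014) and Mfn2 by 0.61 ± 0.14 (edgeR adjusted p = 0.0093).

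The pathway that drives these GTPases was followed from ligand to target. Of 18 interferon ligand genes in the table, 0 passed the filter on low counts, and all 18 together had 3 to 21 counts per library. Ifnb1, the interferon of fibroblasts, had 1 count in DMSO replicate 1, 5 in TBT replicate 2, 1 in TBT replicate 3 and 0 in the other libraries. Ifng had 1 count in DMSO replicate 1 and 1 in TBT replicate 2. The 18 genes summed to 1.40 to 4.99 CPM with DMSO, 0.388 to 1.76 with ROSI and 0.715 to 2.89 with TBT, so the mean was lowest in ROSI and the ranges overlapped. Ifne, the ligand with the most counts, had 28 counts over the DMSO libraries, 7 over ROSI and 12 over TBT. At such low counts background matters: the sensory receptor genes, silent in most tissues, also averaged lowest in ROSI. They had 0.343 CPM per gene in DMSO, 0.0437 in ROSI and 0.0957 in TBT. The part of this background in the ligand counts was not tested. No ligand was tested, and the part of ligand levels in the result was not tested.

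Of 5 receptor genes tested, 1 rose in ROSI and 0 fell, beside 10.0% higher and 12.6% lower among all genes, with 3 lower at an unadjusted p below 0.05. Ifngr1, the ligand-binding chain of the interferon gamma receptor, rose from 94.7 ± 13.5 to 146 ± 15.6 CPM (0.62 ± 0.13, edgeR adjusted p = 0.0017) and thus moved opposite to the GTPases. Ifnar1, a chain of the type I receptor, did not pass in ROSI (0.06 ± 0.14, edgeR adjusted p = 0.82). In TBT it fell from 37.9 ± 4.91 to 25.2 ± 2.65 CPM (-0.58 ± 0.14, edgeR adjusted p = 0.013).

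Signalling genes were followed next. Of 9 tested JAK, STAT and IRF genes, 4 fell in ROSI and 0 rose, with a median of -0.58, beside 12.6% lower and 10.0% higher among all genes. Stat2 fell from 207 ± 58.7 to 52.2 ± 1.66 CPM (-1.98 ± 0.20, edgeR adjusted p = 2.2e-06) and Irf9, its partner in the ISGF3 complex, from 79.8 ± 23.9 to 22.4 ± 2.17 CPM (-1.83 ± 0.21, edgeR adjusted p = 6.9e-06). Irf1, a transcription factor of the interferon response, fell from 23.5 ± 3.95 to 10.4 ± 2.20 CPM (-1.17 ± 0.18, edgeR adjusted p = 0.00016). In TBT against DMSO, 2 of 9 fell, beside 7.03% of all genes. Stat3 fell by 0.64 ± 0.15 (edgeR adjusted p = 0.011) and Irf1 by 0.64 ± 0.18 (edgeR adjusted p = 0.025). The Irf1 call was lost without DMSO replicate 2 or 4 or TBT replicate 2 or 3 (p up to 0.088 over the alternatives, edgeR).

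Brakes on the pathway were tested as 4 genes, of which 2 fell in ROSI and 0 rose, beside 12.6% and 10.0% of all genes. Usp18, itself interferon-induced, fell from 44.7 ± 15.3 to 5.47 ± 0.794 CPM (-3.00 ± 0.31, edgeR adjusted p = 2.4e-06) and had 44.3 ± 16.8 CPM in TBT. Socs3, which is induced through STAT3, fell in ROSI (-0.79 ± 0.15, edgeR adjusted p = 0.0012) and in TBT (-0.96 ± 0.16, edgeR adjusted p = 0.00098), so it did not share the high TBT level of the GTPases.

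Proteins that place the GTPases on membranes, and those that act after them, were mostly not called. Of 13 genes of ATG8 conjugation and vacuole tagging, 2 rose in ROSI and 1 fell, with a median of 0.25, near the 10.0% higher and 12.6% lower among all genes. The gene that fell was Trim21 (-1.11 ± 0.20, edgeR adjusted p = 0.00052), an antibody receptor and ubiquitin ligase. Atg12 and Sqstm1 rose (edgeR adjusted p = 0.021 and 0.048). The Atg12 call was lost without DMSO replicate 4 or ROSI replicate 1 or 2 (p up to 0.079 over the alternatives, edgeR). The Sqstm1 call was lost without any 1 DMSO library, ROSI replicate 1 or 2, or TBT replicate 1 or 2 (p up to 0.17, edgeR). In TBT against DMSO, 2 of 13 rose, Atg3 and Traf6, beside 8.22% of all genes. Both calls were lost without DMSO replicate 1, 2 or 3 or TBT replicate 1, 2 or 3, and that of Traf6 without DMSO replicate 4 too (p up to 0.1 for Atg3 and 0.084 for Traf6, edgeR). Of 5 tested inflammasome genes, 2 fell in ROSI, beside 12.6% of all genes: Casp12 (-1.18 ± 0.14, edgeR adjusted p = 1.2e-05) and Gsdmd, the pore-forming gasdermin (-1.46 ± 0.24, edgeR adjusted p = 0.00025). In TBT against DMSO edgeR called 0 of 5, with 2 lower at an unadjusted p below 0.05, 1 by DESeq2 and 2 by limma.

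**Figure D5:**
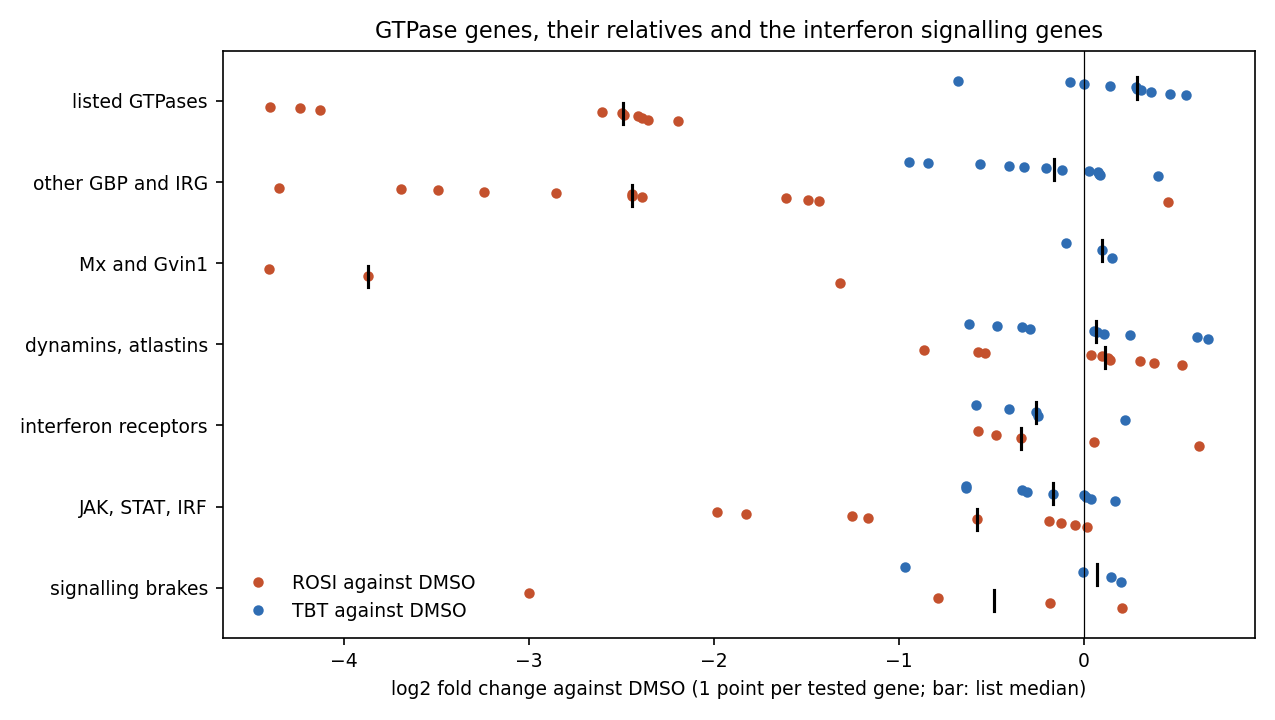
Log2 fold change of every tested gene in the plotted lists, for ROSI against DMSO and for TBT against DMSO. Each gene is 1 point, with a line at the median of its list. Plotted are the 10 GTPases, the 12 relatives, Mx and Gvin1, dynamins and atlastins, interferon receptors, JAK, STAT and IRF genes, and brakes. In ROSI the 10 GTPases (median -2.49) and the 12 relatives (median -2.44) lie low, and the JAK, STAT and IRF genes (median -0.58) lie nearer 0.

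Markers of immune and endothelial cells were summed in each library. The 12 macrophage and myeloid genes in the table held 26.4 to 32.8 CPM per library in DMSO, 19.9 to 30.8 in ROSI and 20.8 to 35.9 in TBT, with Tyrobp at 0 in every library and Ptprc at 0 to 10 counts. This sum rests largely on Cd14 and Cd68. Cd68, a lysosomal protein, rose in ROSI from 8.49 ± 2.58 to 14.3 ± 3.10 CPM (edgeR adjusted p = 0.031). The Cd68 call was lost without DMSO replicate 1 or 2 or ROSI replicate 1 or 3 (p up to 0.091 over the alternatives, edgeR). Cd14 had 12.1 ± 2.25 CPM with DMSO, 6.59 ± 2.47 with ROSI and 11.3 ± 6.32 with TBT. In ROSI against DMSO Cd14 was at -0.88 ± 0.33 (edgeR adjusted p = 0.062), and it passed in 8 of 22 alternatives. Several other myeloid genes, too low to test, had fewer counts in ROSI than in DMSO over the 4 libraries. Ptprc had 26 in DMSO, 4 in ROSI and 9 in TBT, Cd163 27, 4 and 9, and Mrc1 37, 13 and 12. Itgam had 15, 1 and 6, and Emr1 12, 0 and 8, so these genes had fewer counts in TBT than in DMSO too. Lyz2 had 8, 11 and 8, and Fcgr1 10, 11 and 7. The 12 T and NK cell genes held 3.56 to 4.43 CPM with DMSO, 1.00 to 2.81 with ROSI and 1.71 to 3.09 with TBT, with Nkg7 at 0. The 5 B cell genes held at most 1.00 CPM in any library, with Cd79b at 0, and the 7 endothelial genes 7.84 to 9.83 CPM with DMSO, 2.51 to 4.42 with ROSI and 5.02 to 7.92 with TBT, with Tie1 at 0. The T and NK cell and endothelial sums thus lay lower in ROSI than in DMSO without overlap, as the GTPases did. In DMSO the T and NK cell sum rests largely on Cd8a, with 46 counts over the DMSO libraries, 14 over ROSI and 9 over TBT. Other members differed: Cd3e had 7, 7 and 2 counts, Cd4 10, 10 and 9, and Cd3g 7, 1 and 1. The endothelial sum rests largely on Kdr (97, 33 and 80 counts) and Tek (66, 40 and 29). In TBT the endothelial sum lay above ROSI and overlapped DMSO, again like the GTPases. The T and NK cell sum differed there, as its TBT range lay wholly below DMSO and overlapped ROSI. The sensory receptor genes, silent in most tissues, were also lowest in ROSI, at 0.0437 CPM per gene, with 0.343 in DMSO and 0.0957 in TBT. The part of this background in the low marker counts was not tested. The part of these cell types, myeloid cells included, in the result was not tested either.

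Of 10 adipocyte genes, 8 rose in ROSI and 0 fell, and of 9 tested marrow stromal genes 4 fell and 0 rose. Among all tested genes, 10.0% were called higher and 12.6% lower in ROSI. The stromal genes that fell were Pdgfra, Pdgfrb, Cxcl12 and Ly6a, while Thy1, Nt5e, Vcam1, Lepr and Cd44 were not called. The 10 adipocyte genes held 1146 to 2435 CPM with DMSO, 5622 to 7179 with ROSI and 2889 to 3958 with TBT, and the 10 marrow stromal genes 3170 to 4208, 1472 to 1667 and 2532 to 3391. These sums rest on a few abundant genes, among them Lpl, Cd36 and Fabp4 for adipocytes and Pdgfra, Cxcl12 and Ly6a for stroma. The adipocyte sum of TBT lay between those of DMSO and ROSI, but members differed. In TBT against DMSO 4 of 10 rose and 1 fell, beside 8.22% higher and 7.03% lower among all genes. The one that fell was Adipoq, which encodes adiponectin, at 10.7 ± 3.26 CPM with DMSO and 2.30 ± 0.856 with TBT (-2.17 ± 0.29, edgeR adjusted p = 0.00019), and Cebpa stood at -0.04 ± 0.20 (edgeR adjusted p = 0.90). The GTPase sum of every TBT library was at least 451 CPM and that of every ROSI library at most 100.4 CPM. The part of cell state in the GTPase levels was not tested.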

How the data were processed

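The authors deposited raw counts per gene symbol and regularized-log values on a log2 scale, 1 column per library, per the file headers. RNA was depleted of ribosomal RNA and read on a SOLiD sequencer as unstranded single 50 nt reads, per the labels' protocols, so overlapping or antisense genes cannot be told apart. The submitters' processing notes name mm9, FastQC, SAMtools and DESeq2. Neither label nor header names an aligner, a counter or an annotation (not given in the sources used here). Columns were matched to groups by library title, with 0 columns left over.

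The tests used edgeR 4.0.16 under R 4.3.3: filterByExpr, TMM factors and 1 quasi-likelihood fit over all 12 libraries with no covariate, p-values adjusted by Benjamini-Hochberg over 12323 genes, threshold 0.05. Each SE is the fold change on the log2 scale over the square root of F. The script was tested on simulated data. Alternatives were other scalings and filters, DESeq2 1.42.0, limma 3.58.1 on the deposited log2 values, a replicate block, the 2 groups alone and each library left out. Exon lengths and 50-base stretches came from GENCODE M21, and promoters from RefSeq.

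The 10 genes and all lists were chosen with earlier results of these data known. Named were all 10, members of the lists, and the 8 tested genes nearest to their median profile (log2 CPM, prior count 2). Libraries of a group were compared for copies by chi-square over genes, and the lowest ratio to its degrees of freedom was 4.66. Lists are described by counts and medians, with no test of a list. One list member is not reported here by name, though it is part of the counts.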

Additional observations from a re-analysis of the deposited data

How the results depend on the processing

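Over 22 alternatives, 10 of 10 GTPases were called lower in ROSI than in DMSO and higher in TBT than in ROSI. Among all genes, 2219 to 3766 were called in either direction for ROSI against DMSO and 1732 to 4826 for TBT against ROSI. The 10 genes were selected on these levels, so their calls are a description and no support. Their fold changes moved: ROSI against DMSO ran from -4.70 to -2.21 for Gm4951, -4.29 to -2.31 for Gbp3 and -4.55 to -2.60 for Iigp1. The values nearest 0 came from limma on the deposited regularized-log values, which are shrunken. For TBT against DMSO, where the main fit called 0 of 10, 1 gene, Gbp2 (lower), was called with upper-quartile factors, DESeq2, a mean of at least 5 CPM, no filter, limma on the deposited values, GC-corrected offsets, and GC-corrected offsets without TBT replicate 4 (both GC settings were chosen after seeing the data). Leaving out 1 library gave 0 to 3 of the GTPases, beside 1019 to 4124 of all genes. Gbp2 passed in 9 of 22 alternatives (log2 fold change -0.94 to -0.44, edgeR, DESeq2 or limma adjusted p 0.0042 to 0.17).

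The sign of 3 genes near 0 turned, and none of them passed. Gbp6 was at -0.07 with upper-quartile factors, -0.02 at a mean of at least 5 CPM, -0.01 with the 2 groups alone, -0.17 with GC-corrected offsets and -0.09 with these and without TBT replicate 4. Leaving out 1 library moved Gbp6 from -0.16 to 0.33, Gbp10 from -0.02 to 0.39 and Irgm1 from -0.26 to 0.26.

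Over all genes, 1879 were called for TBT against DMSO, 1199 with the 2 groups alone, 3510 with GC-corrected offsets and without TBT replicate 4, and 1019 to 4124 with 1 library left out, the most without TBT replicate 4. For TBT against ROSI, 2940 were called, and 1732 to 4826 with 1 library left out. The cause was not tested.

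Same-numbered libraries deviated together at r from -0.43 to 0.14 across genes, so no clear pairing by number was seen in this measure. In DMSO and ROSI, however, replicates 1 and 2 were nearest to each other, as were replicates 3 and 4. Their chi-square ratios were 4.97 and 10.4 in DMSO and 10.5 and 5.84 in ROSI. The other pairs ran from 11.4 to 23.9 in DMSO and from 19.9 to 31.6 in ROSI. In TBT replicates 1 and 3 were nearest (4.66). The labels name no batch, and the cause was not tested. With the replicate block, 1160 genes were called for TBT against DMSO, 0 of the 10 GTPases among them, and Gbp6 was at -0.0031. Among genes named above, the block ended the calls of Gbp11, Opa1, Atg12 and Sqstm1 in ROSI against DMSO and of Irf1, Atg3 and Traf6 in TBT against DMSO. Without TBT replicate 4, Opa1, Ptpn2, Atg12, Gabarap, Map1lc3b, Thy1 and Vcam1 also passed in TBT against DMSO. Among those that passed without it in ROSI against DMSO were Atl1, Atl3, Ifnar2, Cd14 and Tyk2. Tyk2 also passed there without DMSO replicate 3 or TBT replicate 1, Dnm1 in TBT against DMSO without ROSI replicate 2 or TBT replicate 3, and Casp4 without ROSI replicate 2. Depth limits Gm4951 in ROSI (3 to 23 counts) and all interferon ligands.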
